A study of Rattus norvegicus with 27 samples.

Results

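Oligodendrocyte progenitor cells (OPCs) kept dividing in PDGF were compared with OPCs that had spent 8 h without PDGF and with T3, the active thyroid hormone. The comparison rests on 6 Affymetrix rat genome arrays of 27 in the series, 3 of PDGF at 0 h and 3 of T3 at 8 h, chosen by their labels, and it covers every gene with a probe set of its own, 14218 in all. The cells were rat OPCs from the cerebral cortices of pups in the first postnatal week, taken with magnetic beads against A2B5, a ganglioside of glial progenitors, and expanded in PDGF-AA with Noggin, which blocks bone morphogenetic proteins. These 6 cultures had no interferon-γ, which other arrays of the series test. The replicate numbers are donors in the labels, so each donor gave a PDGF and a T3 8 h array; whether a donor was 1 pup or several is not given in the sources used here. Loss of PDGF, addition of T3 and 8 h more in culture came together, and the PDGF arrays exist at 0 h only, so the effects of these 3 changes cannot be told apart. Whether Noggin stayed in the medium with T3 is not given in the sources used here. A loss of Noggin, if there was one, could not be told apart from them either. The deposited values are RMA signals, corrected for background and quantile-normalised over the arrays. They are log2 values, and so is every level or change below, where 1 unit is a 2-fold change. Array values stand in the order of donors 1, 2 and 3, and SE is the standard error of a change.

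PDGF binds the receptor tyrosine kinase PDGFRα and, through Ras, MEK and ERK, switches on immediate early genes such as the Egr and Fos families, feedback inhibitors of ERK such as the Sprouty proteins, and the D cyclins that carry a cell from G1 into S phase. Without it OPCs leave the cell cycle. T3 enters through membrane transporters and binds nuclear receptors encoded by Thra and Thrb, which pair with retinoid X receptors on DNA, release corepressors and recruit coactivators. It is known in this lineage as a timer that lets OPCs stop dividing and turn into premyelinating and then myelinating oligodendrocytes.

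OPC identity markers were bright in both groups. Of 9 identity markers 8 were measured, and all 8 lay above the median of all values, 5.99, with Pdgfra at 12.68, 12.77 and 12.77 with PDGF and 12.81, 12.92 and 13.01 at T3 8 h. The microglia and macrophage list set 1 array apart: its 17 measured markers changed by a median of 0.17 in donor 1, −0.87 in donor 2 and 0.20 in donor 3, so the T3 8 h array of donor 2 was low, and the summed linear signal of the list ran from 2372 to 5342 with PDGF and from 2584 to 6810 at T3 8 h, lowest in donor 1 in both groups. Csf1r, the receptor that keeps microglia alive, read 5.77, 6.92 and 6.96 with PDGF and 6.04, 5.69 and 6.96 at T3 8 h, and 4 of the 17 markers lay below the median of all values in each group. The brightest was Fcer1g, an immune receptor chain. Astrocyte markers summed to 12020 to 16376 with PDGF and 12944 to 19383 at T3 8 h, neuron markers to 5656 to 6448 and 6474 to 6570, and vascular and fibroblast markers to 573 to 793 and 545 to 773, with 12 and 13 of 15 of the last below the median. The 8 OPC identity markers summed to 20447 to 22297 with PDGF and 20305 to 23628 at T3 8 h. Only 3 of 15 astrocyte markers lay below the median in each group. The brightest, Slc1a3, had means of 12.17 with PDGF and 11.77 at T3 8 h. A level above the median therefore does not by itself tell OPCs from astrocytes. The 3′ minus 5′ signal of Gapdh, a check of RNA quality, was −0.25, 0.07 and −0.08 with PDGF in donors 1 to 3 and −0.20, −0.18 and −0.15 at T3 8 h. The part of these differences in the results below was not tested, and counts are also given without each donor. Each call was also computed in 12 other ways, the loss of each donor among them, or in 11 for genes with a mean under 6, which 1 of the 12 leaves out. The fits that ended a call or moved it by more than 1.5 times are given beside the gene; where none is given for a gene with its 6 array values, none did.

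At T3 8 h, 1433 genes were higher (10.1% of the 14218) and 1227 lower (8.63%) than with PDGF by limma with donors as blocks, at a Benjamini-Hochberg adjusted p under 0.05; such genes are called higher or lower from here on. Most of these changes were small. Only 126 of the higher genes (0.886%) and 92 of the lower (0.647%) changed at least 2-fold. The median change of all genes was 0.01. Of the 2660 called genes, 2643 moved the same way in all 3 donors. The call was made from the same donors and favours such genes, so this count is no separate support. The largest falls were the immediate early genes Egr2 and Egr1, and the largest rises Crym, a thyroid hormone binding protein, and Bmp4, a secreted bone morphogenetic protein. Over all genes the median size of the change was 0.22 in donor 1, 0.18 in donor 2 and 0.15 in donor 3. Among the genes with the largest mean changes, a choice that a large value in any donor favours, donor 1 held the largest change in 19 of the 20 largest rises and 18 of the 20 largest falls, with median sizes of 2.84 and 2.37, against 1.61 and 1.56 in donor 2 and 1.42 and 1.51 in donor 3. Without donor 1, 50 genes were at least 2-fold higher and 64 at least 2-fold lower. Of any size, 960 genes were higher and 896 lower without donor 1, 417 and 389 without donor 2, and 701 and 500 without donor 3.

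**Figure D1:**
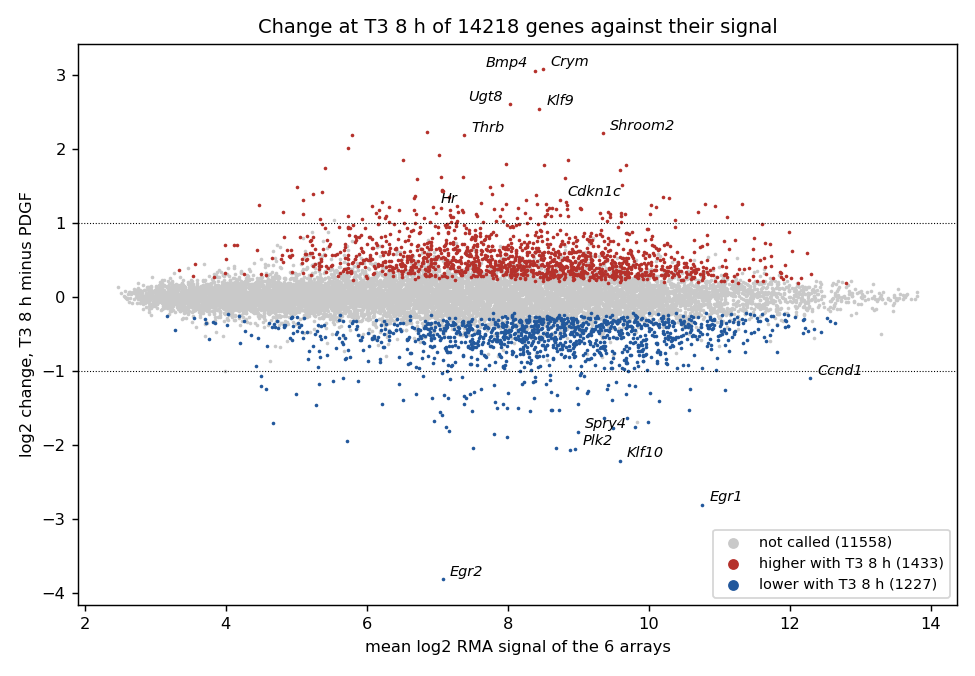
Log2 change between T3 8 h and PDGF against the mean log2 RMA signal of the 6 arrays, 1 point for each of 14218 genes, with the 1433 higher genes in red, the 1227 lower genes in blue and the others in grey; dotted lines mark a 2-fold change. Egr2 and Egr1 lie lowest, and Crym, Bmp4, Ugt8 and Klf9 lie highest.

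The genes were read in 25 lists of pathways and 5 of cell type markers, and some genes stand in more than 1 list. The lists with the largest shares of members called were ribosome biogenesis, with 27 of 28 lower, DNA replication, with 20 of 31 lower, and feedback inhibitors of ERK, with 9 of 17 lower. Among rises, 11 of 27 FoxO and starvation response genes and 10 of 25 genes of committed and premyelinating oligodendrocytes were higher. Each is described below against the 10.1% and 8.63% of all genes.

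**Figure D2:**
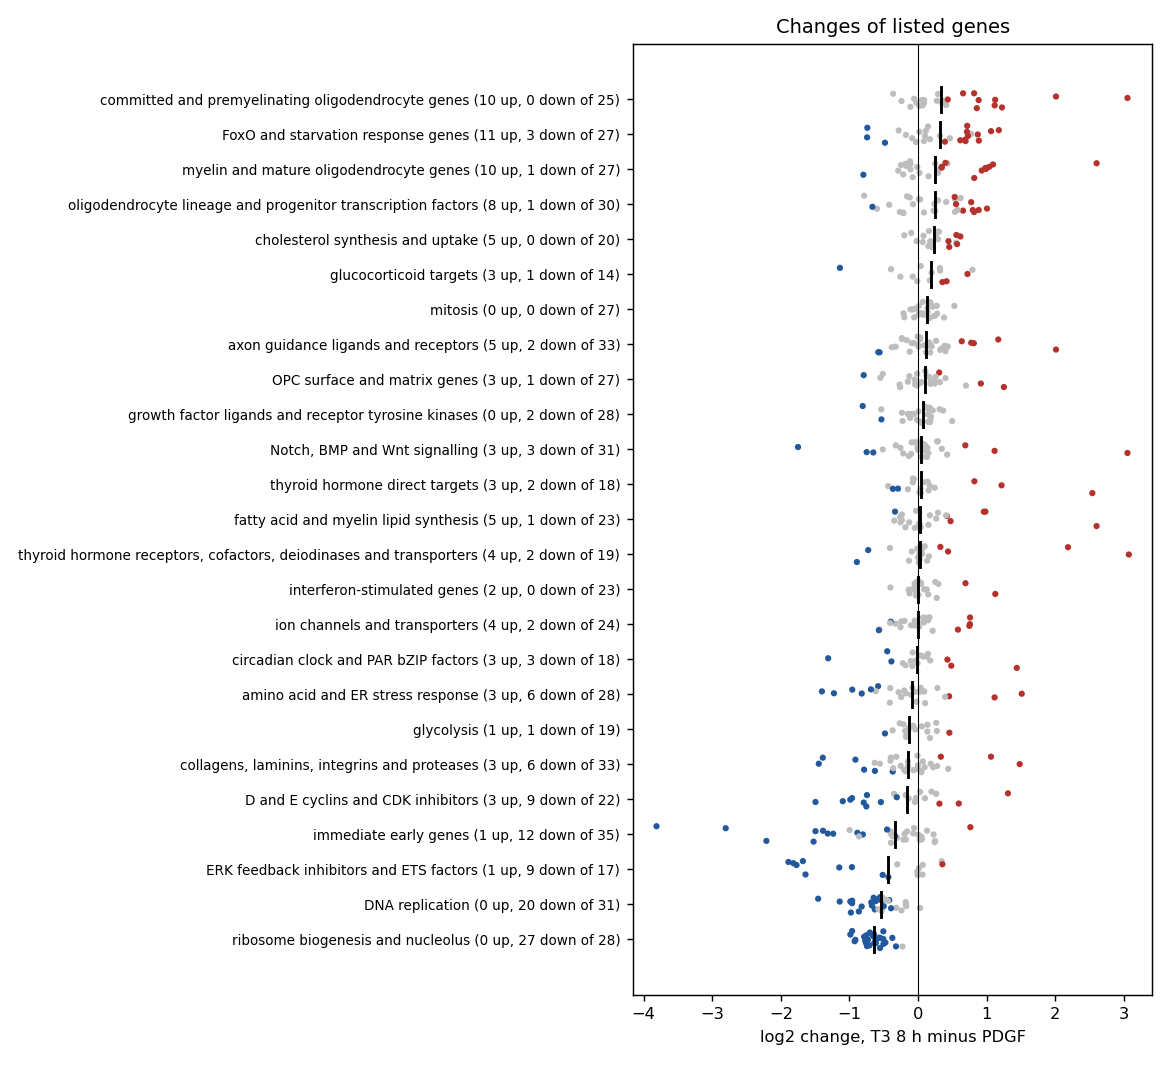
Log2 change between T3 8 h and PDGF of the measured members of 25 gene lists, 1 point a gene, with called rises in red, called falls in blue, other genes in grey and a black bar at the median of each list. Ribosome biogenesis (27 of 28 down) and DNA replication (20 of 31 down) lie at the bottom, and premyelinating genes (10 of 25 up) at the top.

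The genes that fell furthest, Egr2 and Egr1, answer to growth factor signalling. Egr2, a zinc finger factor induced by ERK, read 8.93, 9.18 and 8.85 with PDGF and 4.78, 5.17 and 5.56 at T3 8 h, a 14.1-fold fall (change −3.81, SE 0.38, adjusted p = 2.67e-06). The groups lay more than 3 log2 units apart in the probe set shown, the brighter of a pair, and Egr2 changed by −2.15 as the mean of its probe sets. Egr1, its close relative, read 12.12, 12.17 and 12.17 with PDGF and 8.79, 9.57 and 9.69 at T3 8 h (change −2.80, SE 0.40, adjusted p = 0.00011). All T3 8 h arrays of Egr1 lay more than 2 units below all PDGF arrays. Nab2, a corepressor that Egr factors induce and that acts back on them, read 9.70, 10.02 and 10.01 with PDGF and 7.37, 8.14 and 8.05 at T3 8 h (change −2.06, SE 0.22, adjusted p = 5.94e-06). Klf10, a Krüppel-like repressor, fell by 2.21, and the AP-1 factor Fos fell by 1.52 (adjusted p = 4.82e-08 and 8.41e-06). Fos changed by −0.83 as the mean of its probe sets. The nuclear receptor Nr4a1 fell by 1.495, its relative Nr4a3 by 0.88, and the early genes Ier3 and Ier2 by 1.39 and 1.32 (limma adjusted p from 1.01e-06 to 0.000117). The kinase gene Plk2, induced early by serum, fell by 2.05, with 9.65, 10.19 and 10.10 with PDGF and 7.58, 8.10 and 8.10 at T3 8 h.

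Of 35 measured immediate early genes, 12 were lower (34.3%), 1 was higher and the median change was −0.33, against 0.01 for all genes. The change was negative in 25 of the 35. In 15 (42.9%) all T3 8 h arrays lay below all PDGF arrays, against 12.7% of all genes. The list did not move as a block. Jun read 8.74, 8.98 and 9.11 with PDGF and 9.08, 9.25 and 9.25 at T3 8 h. Fosb, Fosl1, Fosl2, Egr3, Egr4 and Zfp36 had changes between −0.06 and 0.13. None of these was called. Fosb was dim, with 3.47, 3.28 and 3.24 with PDGF and 3.38, 3.37 and 3.35 at T3 8 h. Fosl1, Fosl2, Egr3 and Egr4 also lay below the median of all values, 5.99, with means over the 27 arrays of 5.58, 4.66, 5.30 and 5.43. Myc, which drives growth and ribosome synthesis, read 10.03, 10.08 and 10.04 with PDGF and 9.50, 9.65 and 9.81 at T3 8 h, so its groups did not overlap, but the change of −0.40 was not called (limma adjusted p = 0.215). The only member called higher was Rgs2, a regulator of G protein signalling, at 0.76. Rgs2 was not called in a fit of the 6 arrays alone (adjusted p = 0.0646) or without donor 2 (0.0987) and changed by 0.49 without donor 1. Of the 12 that fell, Maff, a small bZIP factor, and Arc, known from synapses, changed by −1.24 and −0.45; Maff was not called without donor 2 (adjusted p = 0.0574) or without donor 3 (0.0943). Arc was not called without donor 2 (adjusted p = 0.0672) or without donor 3 (0.0846). Without donors 1, 2 and 3 in turn, 14, 8 and 8 members were lower.

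Feedback inhibitors of ERK fell with them: 9 of 17 were lower (52.9%), 1 was higher, and the median was −0.43. The 3 Sprouty genes on the array, which block signalling from receptor tyrosine kinases, all fell. Spry4 read 9.79, 9.996 and 9.93 with PDGF and 7.45, 8.25 and 8.56 at T3 8 h (change −1.82, SE 0.19, adjusted p = 4.23e-06), while Spry1 fell by 1.89 and Spry2 by 1.64 (adjusted p = 4.93e-06 and 6.93e-05). Dusp6, the phosphatase that removes phosphate from ERK, read 9.94, 10.53 and 10.67 with PDGF and 7.65, 8.88 and 9.30 at T3 8 h (change −1.77, SE 0.27, adjusted p = 0.000157), and its T3 8 h array of donor 1 was the lowest of the 6. Phlda1, a pleckstrin-like protein that growth factors induce, fell by 1.68, and Rasa1, a GTPase activator for Ras, by 0.43, and Rasa1 was not called without the donor block (adjusted p = 0.0975), in a fit of the 6 arrays alone (0.0655) or without donor 2 (0.0919). The ETS factors Etv5 and Etv4 fell by 1.15 and 0.96. Etv5 was not called in a fit of the 6 arrays alone (adjusted p = 0.0723) and changed by −0.72 as the mean of its probe sets and −0.69 without donor 1. Etv4 was not called without donor 2 (adjusted p = 0.115) or without donor 3 (0.09). Their relative Etv1 was at 11.57, 11.25 and 11.25 with PDGF and 11.78, 11.64 and 11.69 at T3 8 h, with no fall. Dusp4, Dusp7, Dusp8, Spred3 and Lif had changes between −0.01 and 0.07, but a dimmer probe set of Spred3, at a mean of 6.55 against 6.84, changed by −0.64 (limma adjusted p over all probe sets = 0.00146). Errfi1, an inhibitor of the EGF receptor, was the 1 member called higher, at 0.36. Errfi1 was not called without donor 1, 2 or 3 or in 1 other fit (adjusted p from 0.0535 to 0.208). Without donors 1, 2 and 3 in turn, 9, 6 and 8 members of the list were lower.

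**Figure D3:**
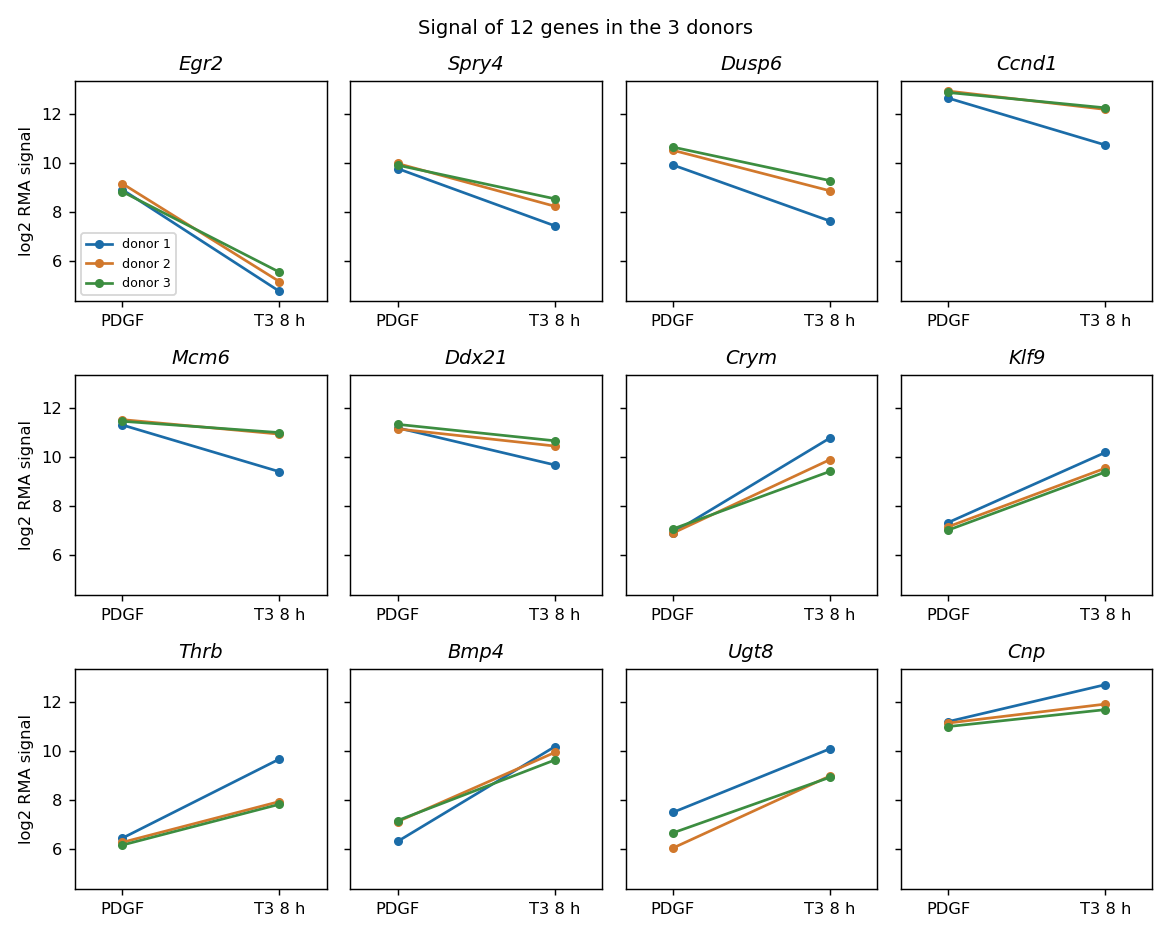
Log2 RMA signal of 12 genes in the PDGF and T3 8 h arrays, with a line for each of 3 donors. Egr2, Spry4, Dusp6, Ccnd1, Mcm6 and Ddx21 fall and Crym, Klf9, Thrb, Bmp4, Ugt8 and Cnp rise in all 3 donors, with the steepest line in donor 1 for all of them but Ugt8.

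Many growth factor genes carry CArG boxes, the sites of serum response factor, in the bases before their start, and 4 such stretches are shown because they belong to members that fell: Egr2, Srf itself, the Krüppel-like factor Klf6 and the ERK phosphatase gene Dusp5. The CArG box was searched on both strands in the 250 bases before the start of 11734 genes (RefSeq, assembly GRCr8). It was found in 5 of 24 immediate early genes (20.8%) and 2 of 14 ERK feedback genes (14.3%) with a sequence, and in 1.24% of all 11734. The others of the 5 and 2 were Egr1, Zfp36, which read 5.47, 5.69 and 5.56 with PDGF and 5.58, 5.61 and 5.54 at T3 8 h, and Etv1, which did not fall. The boxes of Dusp5 lie end to end. Capitals mark the boxes.
Egr2, chr20:21054485-21054554, minus strand: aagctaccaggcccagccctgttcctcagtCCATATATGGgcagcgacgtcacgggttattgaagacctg
Srf, chr9:21923965-21924054, plus strand: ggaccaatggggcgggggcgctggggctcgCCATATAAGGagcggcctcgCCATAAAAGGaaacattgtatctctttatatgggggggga
Klf6, chr17:69458640-69458709, minus strand: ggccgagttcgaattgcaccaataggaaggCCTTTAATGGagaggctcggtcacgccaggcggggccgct
Dusp5, chr1:262543662-262543741, plus strand: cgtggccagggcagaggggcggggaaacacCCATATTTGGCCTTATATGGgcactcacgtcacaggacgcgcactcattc
The changes of these genes were −3.81, −0.33, −0.80 and −0.51 in this order. Klf6 was not called without donor 2 (adjusted p = 0.144) or without donor 3 (0.0675). Srf, whose groups overlapped, was not called in a fit of the 6 arrays alone (adjusted p = 0.128), without donor 2 (0.22) or without donor 3 (0.293). Dusp5 was not called in a fit of the 6 arrays alone (adjusted p = 0.0568) or without donor 2 (0.0919). A match is a description of the letters and not of binding.

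Few growth factor ligands and receptor tyrosine kinases were called. None of 28 was higher by limma, 2 were lower (7.14%), and 3 had an unadjusted p under 0.05. The heparin-binding EGF-like ligand Hbegf fell by 0.81 and the FGF receptor Fgfr1 by 0.53 (adjusted p = 0.00947 and 0.00589). Hbegf was not called without donor 3 (adjusted p = 0.16). Fgfr1 was not called in a fit of the 6 arrays alone (adjusted p = 0.0533) or without donor 2 (0.0534). Pdgfra, the PDGF receptor, had a change of 0.17 that was not called (adjusted p = 0.457).

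FoxO factors are active when growth factor signalling through AKT is low. In a mixed list of FoxO and starvation response genes, 11 of 27 (40.7%) were higher and 3 lower, with a median of 0.32. FoxO activity itself was not tested. Sesn3, a sestrin that restrains mTORC1, read 5.70, 5.63 and 5.42 with PDGF and 7.08, 6.75 and 6.47 at T3 8 h (change 1.18, SE 0.21, adjusted p = 0.00063), with no overlap. Sesn3 changed by 0.70 as the mean of its probe sets. Ccng2, a cyclin G that goes with cell cycle arrest, read 8.97, 8.62 and 8.81 with PDGF and 10.33, 9.65 and 9.61 at T3 8 h (change 1.07, SE 0.22, adjusted p = 0.00238). Ccng2 was not called without donor 2 (adjusted p = 0.0608). Ddit4, another inhibitor of mTORC1 that stood in the list of stress genes, rose by 1.51, with 9.30, 8.55 and 8.72 with PDGF and 10.99, 10.15 and 9.97 at T3 8 h (adjusted p = 0.000125). Pik3ip1, which inhibits PI3 kinase, and Pdk2, which holds back pyruvate oxidation, rose by 0.89 and 0.87. Pik3ip1 was not called in a fit of the 6 arrays alone (adjusted p = 0.122) or without donor 2 (0.0624) and changed by 0.39 as the mean of its probe sets and 0.42 without donor 1. Pdk2 was not called in a fit of the 6 arrays alone (adjusted p = 0.112) or without donor 2 (0.0875) and changed by 0.43 without donor 1. The 3 that fell were Trib2, Trib1 and Irs2, the last an adaptor of insulin receptors, at −0.74, −0.48 and −0.74. Trib2 was not called without donor 2 (adjusted p = 0.0968) or without donor 3 (0.051). Trib1 was not called as the mean of its probe sets (adjusted p = 0.0648), without donor 1 (0.0937) or without donor 2 (0.0501). Irs2 was not called in a fit of the 6 arrays alone (adjusted p = 0.058), without donor 2 (0.143) or without donor 3 (0.0548). Of the list 10, 5 and 10 members were higher and 2, 0 and 1 lower without donors 1, 2 and 3 in turn.

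Thyroid hormone genes gave some of the largest rises but in few members. Crym, a cytosolic protein that binds T3, read 6.91, 6.90 and 7.07 with PDGF and 10.78, 9.90 and 9.42 at T3 8 h, an 8.42-fold rise (change 3.07, SE 0.21, adjusted p = 1.67e-08). Klf9, a Krüppel-like factor that thyroid hormone receptors induce directly, read 7.33, 7.16 and 7.02 with PDGF and 10.19, 9.55 and 9.40 at T3 8 h (change 2.54, SE 0.14, adjusted p = 1.01e-09), with all T3 8 h arrays over 2 units above all PDGF arrays. It has 3 probe sets, and Klf9 changed by 1.29 as the mean of its probe sets and 0.98 by its most variable probe set. Thrb, the beta receptor, read 6.44, 6.27 and 6.16 with PDGF and 9.67, 7.94 and 7.82 at T3 8 h (change 2.19, SE 0.28, adjusted p = 3.01e-05). Thrb changed by 1.08 as the mean of its probe sets. Hr, a corepressor of these receptors, read 6.22, 6.30 and 6.48 with PDGF and 7.41, 7.72 and 7.51 at T3 8 h (change 1.22, SE 0.16, adjusted p = 4.08e-05). Thra, the alpha receptor, rose by 0.33 but was not called without donor 1 or 2 or in 2 other fits (adjusted p from 0.105 to 0.555). Of 18 listed direct targets, 3 were higher (16.7%) and 2 lower, and the median was 0.04; the third riser, the lipogenic gene Thrsp, was at 0.82 and was not called without donor 2 or 3 or in 3 other fits (adjusted p from 0.0999 to 0.445).

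Of the other listed targets, most were not called. Dio3 and Dio1, which inactivate and convert thyroid hormone, had changes of 0.15 and −0.06, the cerebellar targets Pcp2 and Reln 0.04 and 0.04, and Shh −0.07, none called. In this order their means over the 27 arrays were 4.72, 4.57, 4.26, 5.97 and 4.21, all below the median of all values, 5.99. Little can be read from the lack of a call at such low signals. The calcium pump Atp2a2 and Tbl1xr1, a part of the corepressor complex, fell by 0.37 and 0.29. Atp2a2 was not called without donor 1 or 2 or in 4 other fits (adjusted p from 0.1 to 0.509). Tbl1xr1 was not called without donor 1, 2 or 3 or in 3 other fits (adjusted p from 0.0591 to 0.364) and changed by −0.62 by its most variable probe set. Of 19 receptors, cofactors, deiodinases and transporters, 4 were higher (21.1%) and 2 lower. The coactivators Ncoa1, Ncoa2, Ncoa3 and Med1 and the corepressors Ncor1 and Hdac3 changed by −0.13 to 0.16, with no call. Rxrb, a retinoid X receptor, rose by 0.44 and was not called without donor 1, 2 or 3 or in 1 other fit (adjusted p from 0.0503 to 0.21). The transporters Slc7a5 and Slco1c1 fell by 0.89 and 0.73, with adjusted p = 0.0461 and 0.0445. Slc7a5 was not called without donor 2 or 3 or in 4 other fits (adjusted p from 0.0544 to 0.151). Slco1c1 was not called without donor 2 or 3 or in 3 other fits (adjusted p from 0.0509 to 0.275). An exact direct repeat of AGGTCA with 4 bases between the copies, a site of thyroid hormone receptors, was searched in the 250 bases before the start. It was found in 0 of the 11734 stretches, on either strand. Sites that differ from it in a base or lie further away were not searched. As no gene had the repeat, the search for it cannot set the listed targets apart from other genes. The single copy AGGTCA was found in 2 of 16 listed targets with a sequence (12.5%), near the 11.3% of all 11734. Its share was 28% in ribosome biogenesis genes, 7 of 25.

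Several genes of the G1 to S step fell. Ccnd1, the D cyclin that answers to mitogens, read 12.66, 12.95 and 12.89 with PDGF and 10.75, 12.20 and 12.27 at T3 8 h (change −1.10, SE 0.24, adjusted p = 0.00333). Ccnd1 was not called in a fit of the 6 arrays alone (adjusted p = 0.0633) or without donor 2 (0.052) and changed by −0.69 without donor 1. Ccnd2 read 9.25, 8.22 and 8.30 with PDGF and 6.48, 7.40 and 7.41 at T3 8 h and fell by 1.49 (adjusted p = 0.000871). Ccnd2 was not called in a fit of the 6 arrays alone (adjusted p = 0.0768) and changed by −0.86 without donor 1. Ccne1, the cyclin E that starts S phase, read 8.60, 8.92 and 8.96 with PDGF and 7.06, 8.21 and 8.26 at T3 8 h (change −0.99, SE 0.21, adjusted p = 0.0026). Ccnd3 had a change of −0.04 and the kinases Cdk4, Cdk6 and Cdk2 of 0.03, 0.10 and −0.14, none called. Of 22 cyclins, kinases, inhibitors and E2F factors of this step, 9 were lower (40.9%) and 3 higher; without donors 1, 2 and 3 in turn 5, 3 and 5 were lower. The CDK inhibitors went in both directions. Cdkn1c (p57), an inhibitor of G1 kinases, read 8.48, 7.88 and 7.88 with PDGF and 10.24, 8.99 and 8.95 at T3 8 h (change 1.31, SE 0.24, adjusted p = 0.00081). Cdkn1a (p21) fell by 0.74 and was not called by its most variable probe set (adjusted p = 0.268), without donor 1 (0.0608) or without donor 3 (0.0638). Cdkn1b (p27) read 11.53, 11.47 and 11.52 with PDGF and 11.71, 11.61 and 11.80 at T3 8 h, with no overlap but no call (adjusted p = 0.225). The other rises were Cdkn2d (p19) at 0.31 and Rbl2, a relative of the retinoblastoma protein, at 0.59; Cdkn2d was not called without donor 2 or 3 or in 2 other fits (adjusted p from 0.0774 to 0.359). Rbl2 was not called in a fit of the 6 arrays alone (adjusted p = 0.0813) and changed by 0.37 without donor 1.

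DNA replication genes were lower in 20 of 31 cases (64.5%) and higher in none by limma, and 27 had an unadjusted p under 0.05. The median was −0.54. Orc1, the subunit that marks origins, read 6.10, 5.82 and 6.11 with PDGF and 3.76, 4.87 and 5.04 at T3 8 h (change −1.46, SE 0.24, adjusted p = 0.000322). Mcm2, a subunit of the replicative helicase, read 9.86, 10.37 and 10.17 with PDGF and 8.34, 9.48 and 9.64 at T3 8 h (change −0.98, SE 0.22, adjusted p = 0.00432). Mcm2 was not called without the donor block (adjusted p = 0.0611). Mcm6 read 11.32, 11.53 and 11.47 with PDGF and 9.41, 10.94 and 11.00 at T3 8 h, and Cdt1, which loads the helicase, 9.98, 10.10 and 10.22 with PDGF and 7.72, 9.45 and 9.70 at T3 8 h. Both fell in all donors and most in donor 1, whose T3 8 h array was over 1.5 below the others. Mcm6 was not called without donor 1 or 2 or in 2 other fits (adjusted p from 0.0634 to 0.183). Cdt1 was not called without the donor block (adjusted p = 0.0882), in a fit of the 6 arrays alone (0.102) or without donor 2 (0.0865) and changed by −0.58 without donor 1. Mcm3 fell by 0.96, and Uhrf1, which carries DNA methylation through replication, by 0.96; Mcm3 was not called without donor 2 (adjusted p = 0.0531). Uhrf1 was not called without the donor block (adjusted p = 0.198), in a fit of the 6 arrays alone (0.057) or without donor 2 (0.0742). The list's medians within donors were −0.95, −0.38 and −0.30, and without donors 1, 2 and 3 in turn 12, 7 and 12 members were lower; 6 were without the donor block and 6 in a fit of the 6 arrays alone.

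Of 27 mitosis genes, limma called none in either direction at 8 h, 0 had an unadjusted p under 0.05, and the median was 0.14, with a lowest change of −0.21; a fit of the 6 arrays alone called 1 of them higher. In 12 of the 27 (44.4%) the T3 8 h arrays lay above all PDGF arrays, against 17.2% of all genes, and in 2 below. Cdk1, the mitotic kinase, had a change of 0.01, Top2a, which untangles chromosomes, of 0.01, and the proliferation marker Mki67 of −0.08; Ccnb1, the mitotic cyclin, read 11.43, 11.53 and 11.41 with PDGF and 11.72, 11.63 and 11.58 at T3 8 h, higher in each donor but not called (adjusted p = 0.739). These 4 were chosen after their values were seen. The replication and mitosis lists were not tested against each other.

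E2F factors switch on S phase genes through sites such as TTTGGCGC and TTTCCCGC, and 4 stretches are shown because they precede replication genes that fell. Either site was searched on both strands in the 250 bases before the start. It was found in 8 of 29 replication genes with a sequence (27.6%), in 3 of 25 ribosome biogenesis genes (12%), in 0 of 23 mitosis genes and in 2.14% of all 11734; of the 8, Gins1, Pola1 and Tyms were not called. Capitals mark the sites, shown as they read on the gene's strand, where GCGCCAAA and GCGGGAAA are the same sites on the other strand.
Mcm5, chr19:13488574-13488812, plus strand: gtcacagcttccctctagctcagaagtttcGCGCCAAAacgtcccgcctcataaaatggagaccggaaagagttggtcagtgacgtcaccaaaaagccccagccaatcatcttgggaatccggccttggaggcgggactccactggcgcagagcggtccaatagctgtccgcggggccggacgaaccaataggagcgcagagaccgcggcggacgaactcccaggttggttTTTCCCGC
Mcm6, chr13:42404454-42404521, minus strand: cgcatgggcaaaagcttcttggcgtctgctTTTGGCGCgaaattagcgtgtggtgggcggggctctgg
Mcm7, chr12:22163374-22163428, minus strand: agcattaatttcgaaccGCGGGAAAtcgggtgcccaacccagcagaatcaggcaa
Slbp, chr14:81295998-81296039, plus strand: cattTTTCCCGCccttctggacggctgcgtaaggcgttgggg
Mcm5 and Mcm7, helicase subunits, changed by −0.86 and −0.54, and Slbp, which binds histone mRNA, by −0.68 (limma adjusted p = 0.0164, 0.00113 and 0.0153); these 3 were chosen for their sites. Mcm5 was not called without donor 2 or 3 or in 2 other fits (adjusted p from 0.0523 to 0.0869). Slbp, whose groups overlapped, was not called without donor 1 or 3 or in 3 other fits (adjusted p from 0.0551 to 0.165). E2f1 and E2f2, activators of this class, fell by 0.96 and 0.79. E2f1 was not called without the donor block (adjusted p = 0.0513), without donor 2 (0.119) or without donor 3 (0.053). E2f2 was not called without donor 1, 2 or 3 or in 2 other fits (adjusted p from 0.0516 to 0.133).

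Ribosome biogenesis had the largest share of called members of the lists. Of 28 measured members 27 were lower (96.4%), the last, Ncl, had a change of −0.23, and the median was −0.65; in 26 the groups did not overlap (92.9%, against 12.7% of all genes). Ddx21, an RNA helicase of the nucleolus, read 11.20, 11.15 and 11.34 with PDGF and 9.68, 10.46 and 10.67 at T3 8 h (change −0.96, SE 0.18, adjusted p = 0.00113). Tsr1, which helps mature the small subunit, read 10.15, 10.64 and 10.61 with PDGF and 9.01, 9.67 and 9.77 at T3 8 h (change −0.99, SE 0.16, adjusted p = 0.000307), and Heatr1, needed for the first steps of rRNA processing, 7.56, 7.61 and 7.63 with PDGF and 6.32, 6.88 and 6.87 at T3 8 h (change −0.91, SE 0.13, adjusted p = 0.00011). The 3 fell in every donor with no overlap, and each T3 8 h array of donor 1 was the lowest. Bop1, which matures the large subunit, fell by 0.92, Wdr43, a part of the small subunit processome, by 0.77, and Rrs1, needed for assembly of the large subunit, by 0.79. Bop1 was not called without donor 3 (adjusted p = 0.0501). Rrs1 was not called without donor 2 (adjusted p = 0.0511). The medians within donors were −0.90, −0.58 and −0.53. In turn without donors 1, 2 and 3, 22, 13 and 16 members were lower, and 20 in a fit of the 6 arrays alone. The E-box CACGTG, the site of Myc, was found in 4 of 25 (16%) of these genes with a sequence and in 5 of 24 immediate early genes (20.8%), against 7.82% of all 11734.

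Of 28 amino acid and stress genes, 6 were lower (21.4%), against 8.63% of all genes. Another 3 were higher (10.7%), near the 10.1% of all genes. Lower were enzymes of serine and one-carbon metabolism and of asparagine synthesis: Mthfd2, a mitochondrial folate enzyme, fell by 1.23, Shmt2 by 0.82 and Asns by 0.96. Mthfd2 was not called in a fit of the 6 arrays alone (adjusted p = 0.0537), without donor 2 (0.0759) or without donor 3 (0.0528) and changed by −0.81 without donor 1. Shmt2 was not called without donor 2 (adjusted p = 0.0951). Asns was not called in a fit of the 6 arrays alone (adjusted p = 0.0624), without donor 2 (0.125) or without donor 3 (0.0771) and changed by −0.61 without donor 1. The cationic amino acid transporter Slc7a1 read 10.57, 11.07 and 10.90 with PDGF and 8.11, 10.11 and 10.12 at T3 8 h and its relative Slc7a3 9.35, 9.50 and 9.54 with PDGF and 11.13, 10.34 and 10.27 at T3 8 h, so that the first fell by 1.40 and the other rose by 1.12. Slc7a1 was not called in a fit of the 6 arrays alone (adjusted p = 0.0634), without donor 2 (0.134) or without donor 3 (0.0986) and changed by −0.88 as the mean of its probe sets and −0.87 without donor 1. Slc7a3 was not called without donor 2 (adjusted p = 0.111) or without donor 3 (0.0611). Without donor 2, 0 of the list were lower, and without donor 3, 1. Of 19 glycolysis genes, 1 was higher, Aldoc, an aldolase, at 0.46, and 1 lower, Pfkp, a phosphofructokinase, at −0.48. Aldoc was not called without donor 2 (adjusted p = 0.0517). Pfkp was not called in a fit of the 6 arrays alone (adjusted p = 0.0551), without donor 2 (0.155) or without donor 3 (0.0728).

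Genes of committed and premyelinating oligodendrocytes rose: 10 of 25 (40%) were higher, none was lower by limma, and the median was 0.34. Bmp4 read 6.31, 7.11 and 7.16 with PDGF and 10.17, 9.94 and 9.63 at T3 8 h, an 8.31-fold rise (change 3.05, SE 0.26, adjusted p = 1.85e-07). Sema5a, a guidance protein that oligodendrocytes carry, read 4.63, 4.63 and 4.90 with PDGF and 7.75, 6.36 and 6.10 at T3 8 h (change 2.01, SE 0.28, adjusted p = 8.69e-05). Sema5a changed by 0.64 as the mean of its probe sets. Sirt2, a deacetylase enriched in this lineage, read 9.23, 9.10 and 8.97 with PDGF and 11.07, 9.92 and 9.69 at T3 8 h (change 1.13, SE 0.19, adjusted p = 0.000508). Tns3, a focal adhesion protein of newly formed oligodendrocytes, rose by 1.22, the adhesion adaptor Lims2 by 1.12 and Bcas1, a marker of early myelinating cells, by 0.88 (adjusted p = 4.08e-05, 0.000568 and 0.00017). Tns3 was not called in a fit of the 6 arrays alone (adjusted p = 0.0525) or by its most variable probe set (0.0753) and changed by 0.81 without donor 1. Bcas1 was not called in a fit of the 6 arrays alone (adjusted p = 0.0537). Enpp6, a choline phosphodiesterase of new oligodendrocytes, was at 5.16, 5.23 and 5.13 with PDGF and 5.32, 4.81 and 4.31 at T3 8 h, and was not called (adjusted p = 0.574; chosen after its values were seen). Without donors 1, 2 and 3 in turn, 9, 6 and 9 members were higher, and 5 in a fit of the 6 arrays alone.

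Some myelin genes had already risen. Ugt8, which makes the myelin lipid galactosylceramide, read 7.49, 6.04 and 6.65 with PDGF and 10.09, 8.98 and 8.93 at T3 8 h, a 6.08-fold rise (change 2.60, SE 0.27, adjusted p = 3.08e-06). Ugt8 changed by 1.33 as the mean of its probe sets. Cnp, an enzyme of non-compact myelin, read 11.20, 11.14 and 11.00 with PDGF and 12.71, 11.91 and 11.69 at T3 8 h (change 0.99, SE 0.15, adjusted p = 0.000195), and Tspan2, a tetraspanin of oligodendrocytes, rose by 1.04 and was not called in a fit of the 6 arrays alone (adjusted p = 0.0519). Cldn11, the tight junction protein of myelin, read 8.06, 7.90 and 7.98 with PDGF and 9.98, 8.61 and 8.63 at T3 8 h, a rise of 1.09. Cldn11 was not called in a fit of the 6 arrays alone (adjusted p = 0.0647), without donor 2 (0.0681) or without donor 3 (0.0895) and changed by 0.68 without donor 1. Mbp, the myelin basic protein, read 8.47, 8.84 and 8.93 with PDGF and 10.29, 8.85 and 9.57 at T3 8 h, so that donor 2 changed by 0.01 and the groups overlapped, with a change of 0.82 (adjusted p = 0.0245). Mbp was not called without donor 1 or 3 or in 2 other fits (adjusted p from 0.0544 to 0.385) and changed by 1.24 by its most variable probe set. The myelin regulatory factor Myrf and the myelin glycoprotein Mag had changes of 0.41 and 0.43, not called (adjusted p = 0.202 and 0.179); Mbp, Myrf and Mag are named by choice after their values were seen. Of 27 listed genes, 10 were higher (37%) and 1 lower. The 1 that fell was Car2, a carbonic anhydrase, at −0.80. Car2 was not called without donor 2 or 3 or in 2 other fits (adjusted p from 0.0502 to 0.209). Without donors 1, 2 and 3 in turn, 7, 5 and 4 were higher, and 2 in a fit of the 6 arrays alone.

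Few OPC surface genes were called. Of 27, 3 were higher (11.1%) and 1 lower (3.7%), near the shares of all genes. Cd9, a tetraspanin, read 9.96, 10.20 and 10.35 with PDGF and 11.86, 11.20 and 11.22 at T3 8 h (change 1.25, SE 0.14, adjusted p = 7.18e-06). Vcan, a proteoglycan of the OPC matrix, rose by 0.92 and was not called in a fit of the 6 arrays alone (adjusted p = 0.0883) or without donor 2 (0.0598) and changed by 0.51 without donor 1. The third was Cacng4, a subunit of AMPA receptors, at 0.31. Cacng4 was not called without donor 1, 2 or 3 or in 4 other fits (adjusted p from 0.0763 to 0.169). Cspg4, the NG2 proteoglycan that marks OPCs, read 8.51, 9.24 and 8.93 with PDGF and 7.202, 8.56 and 8.53 at T3 8 h, a fall of 0.79 with overlap between the groups. Cspg4 was not called without donor 1, 2 or 3 or in 3 other fits (adjusted p from 0.0589 to 0.292). Of the identity markers, Olig1, Sox10, Ptprz1 and Lhfpl3 had changes between −0.15 and 0.23, and Olig2 read 8.13, 6.66 and 7.13 with PDGF and 8.27, 7.78 and 7.73 at T3 8 h, none called. Among 30 lineage transcription factors, 8 were higher (26.7%) and 1 lower. Hes6, a relative of the Notch effectors, read 9.65, 9.48 and 9.55 with PDGF and 10.37, 10.44 and 10.21 at T3 8 h (change 0.78, SE 0.09, adjusted p = 9.07e-06), while Hes1, a Notch effector that holds back differentiation, read 7.39, 7.52 and 7.61 with PDGF and 6.70, 6.90 and 6.92 at T3 8 h (change −0.67, SE 0.13, adjusted p = 0.00116). Tcf7l2, a Wnt pathway factor of new oligodendrocytes, rose by 0.82 and was not called in a fit of the 6 arrays alone (adjusted p = 0.0951) or without donor 2 (0.0608) and changed by 0.44 without donor 1. Sox4, a factor of immature neural cells, and the Notch targets Hey1 and Hes5 rose by 0.80, 1.01 and 0.89. Sox4 was not called without donor 2 (adjusted p = 0.0705) or without donor 3 (0.0653). Hey1 was not called without donor 2 (adjusted p = 0.13) or without donor 3 (0.061). Hes5 was not called without donor 2 (adjusted p = 0.24) or without donor 3 (0.0975) and changed by 0.43 as the mean of its probe sets. Without each donor in turn 9, 2 and 3 were higher.

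In Notch, BMP and Wnt signalling, 3 of 31 were higher (9.68%) and 3 lower (9.68%), near the shares of all genes. Notch1 read 8.64, 9.11 and 9.05 with PDGF and 9.62, 9.67 and 9.58 at T3 8 h (change 0.69, SE 0.13, adjusted p = 0.00107), and its ligand gene Jag1 fell by 0.65 and was not called without the donor block (adjusted p = 0.111) or in a fit of the 6 arrays alone (0.0602). Lef1, a nuclear partner of β-catenin, read 8.203, 7.82 and 7.96 with PDGF and 5.93, 6.35 and 6.45 at T3 8 h (change −1.75, SE 0.22, adjusted p = 2.38e-05). Lgr5, a receptor that strengthens Wnt signals, rose by 1.12 and was not called without donor 2 (adjusted p = 0.0518). Bmp7 fell by 0.75 and was not called in a fit of the 6 arrays alone (adjusted p = 0.0967) and changed by −0.41 without donor 1, while Bmp4, in the same family, rose as given above.

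Cholesterol genes divided the donors. Of 20, 5 were higher (25%) and none lower by limma, and 6 had an unadjusted p under 0.05. The median change was −0.15 in donor 1, 0.40 in donor 2 and 0.47 in donor 3. Mvk, the mevalonate kinase, read 8.75, 8.58 and 8.54 with PDGF and 9.12, 9.26 and 9.34 at T3 8 h (change 0.62, SE 0.14, adjusted p = 0.0052), higher in each donor. Mvk was not called without donor 2 (adjusted p = 0.0678) or without donor 3 (0.131). Idi1, which makes the next isoprene unit, read 12.31, 11.41 and 11.52 with PDGF and 11.74, 11.94 and 12.10 at T3 8 h, lower in donor 1 and higher in the others, and was not called. Dhcr7, of the last step, rose by 0.46 and was not called without donor 2 or 3 or in 3 other fits (adjusted p from 0.0655 to 0.336). The other 3 were Pmvk at 0.56, Fdft1 at 0.44 and Nsdhl at 0.57. Pmvk was not called without donor 2 or 3 or in 2 other fits (adjusted p from 0.0569 to 0.223). Fdft1 was not called without donor 2 or 3 or in 5 other fits (adjusted p from 0.0668 to 0.452). Nsdhl was not called without donor 2 or 3 or in 5 other fits (adjusted p from 0.0701 to 0.42) and changed by 0.89 without donor 1. Without donor 1, 14 of 20 were higher, and without donor 2 or donor 3, 0 were; without the donor block 1 was. The transcription factor gene Srebf2 and its regulator Insig1 had changes of −0.10 and −0.02, and they and Idi1 are named after their values were seen. Of 23 fatty acid and myelin lipid genes, 5 were higher (21.7%) and 1 lower; beside Ugt8, the hydroxylase gene Fa2h rose by 0.98, and Acsl3, which activates fatty acids, by 0.48 (adjusted p = 0.00303 and 0.0019). Fa2h was not called in a fit of the 6 arrays alone (adjusted p = 0.0906) and changed by 0.56 without donor 1. The others were the desaturase Fads1 and the cholesterol exporter Abca1, at 0.42 and 0.96, and the 1 that fell was Ugcg, of glucosylceramide synthesis, at −0.34. Fads1 was not called without donor 1, 2 or 3 or in 1 other fit (adjusted p from 0.0726 to 0.0816). Abca1 was not called without donor 1, 2 or 3 or in 5 other fits (adjusted p from 0.0503 to 0.465). Ugcg was not called without donor 1, 2 or 3 or in 3 other fits (adjusted p from 0.0504 to 0.18).

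**Figure D4:**
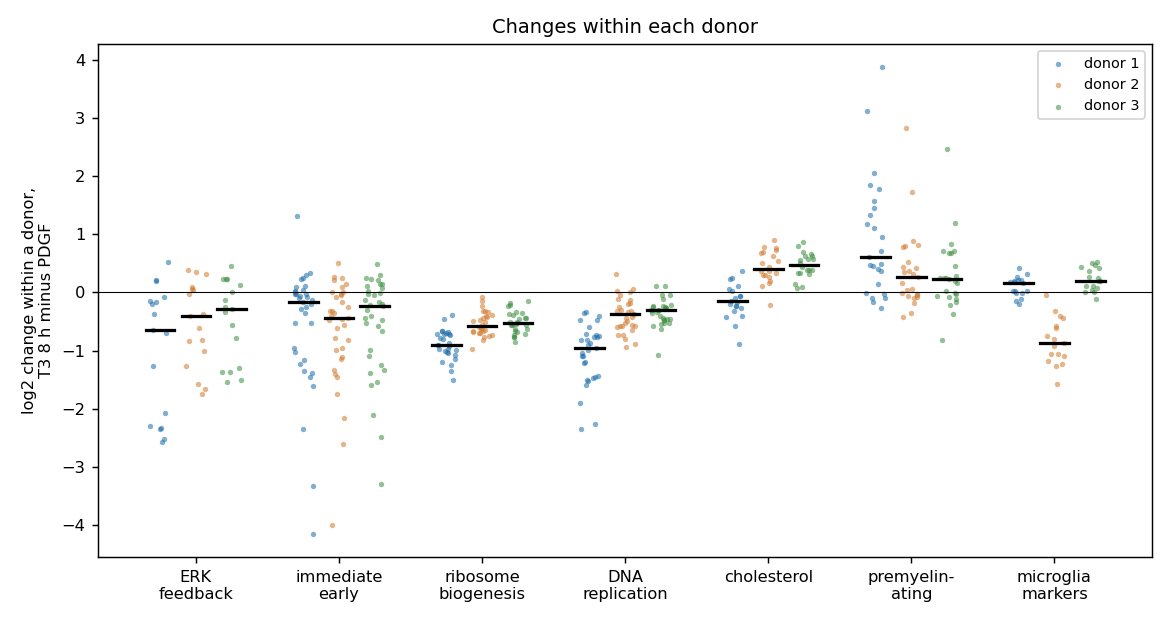
Log2 change between T3 8 h and PDGF within each donor, 1 point a gene, for 7 gene lists, with a black bar at the median of each list in each donor. Ribosome biogenesis and DNA replication genes fall in all donors, with medians of −0.90 and −0.95 in donor 1; cholesterol genes have medians of −0.15, 0.40 and 0.47, and microglia markers of 0.17, −0.87 and 0.20.

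Of 33 matrix and adhesion genes (collagens, laminins, integrins and proteases), 6 were lower (18.2%), against 8.63% of all genes. Another 3 were higher (9.09%), near the 10.1% of all genes. The transmembrane protease Mmp15 read 9.83, 10.45 and 10.21 with PDGF and 7.53, 9.56 and 9.23 at T3 8 h (change −1.39, SE 0.31, adjusted p = 0.00424) and the laminin Lama4 fell by 0.79, and Lama4 changed by −0.48 as the mean of its probe sets. Itga6, the laminin receptor subunit, fell by 1.45 and was not called without donor 2 (adjusted p = 0.0735) and changed by −0.66 as the mean of its probe sets. The collagen Col9a1 rose from a low signal, with 4.67, 4.19 and 3.94 with PDGF and 6.83, 5.50 and 4.90 at T3 8 h (change 1.48, SE 0.30, adjusted p = 0.00192). Col9a1 was not called without donor 2 (adjusted p = 0.0693). The other rises were the protease inhibitor Timp3, at 1.06, and the laminin receptor subunit Itga7, at 0.33. Timp3 was not called in a fit of the 6 arrays alone (adjusted p = 0.139) or without donor 2 (0.061) and changed by 0.46 without donor 1. Itga7 was not called without donor 1 or 3 or in 3 other fits (adjusted p from 0.0547 to 0.22). Of 33 axon guidance genes, 5 were higher (15.2%) and 2 lower. Sema3d, a secreted semaphorin, read 7.12, 6.32 and 6.85 with PDGF and 8.12, 7.90 and 7.78 at T3 8 h (change 1.17, SE 0.16, adjusted p = 6.93e-05), while Sema3a and Sema6a fell by 0.58 and 0.56. Sema3a was not called in a fit of the 6 arrays alone (adjusted p = 0.113), without donor 1 (0.199) or without donor 2 (0.105). Sema6a was not called without donor 2 or 3 or in 2 other fits (adjusted p from 0.102 to 0.185). The netrin receptor Unc5c rose by 0.78 and was not called without donor 2 (adjusted p = 0.1), and the ephrin pathway genes Ephb1 and Efna1 rose by 0.64 and 0.81. Ephb1 was not called without donor 2 (adjusted p = 0.119) or without donor 3 (0.116). Efna1 was not called without donor 1, 2 or 3 or in 2 other fits (adjusted p from 0.0528 to 0.111).

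Of 24 ion channels and transporters, 4 were higher (16.7%) and 2 lower (8.33%). Among sodium channel genes, Scn1a, Scn2a and Scn3a rose by 0.76, 0.58 and 0.75 (adjusted p = 0.00119, 0.0126 and 0.0168). The other sodium channel genes measured in the list were not called. Scn1a and Scn2a were dim, with means over the 27 arrays of 4.65 and 4.53, below the median of all values, 5.99. Scn1a read 4.83, 4.77 and 4.85 with PDGF and 5.43, 5.78 and 5.52 at T3 8 h. Scn1a was not called without donor 2 (adjusted p = 0.0591). Scn2a was not called without the donor block (adjusted p = 0.0892), without donor 1 (0.0563) or without donor 3 (0.108). Scn3a was not called without the donor block (adjusted p = 0.13), without donor 2 (0.108) or without donor 3 (0.076). The potassium channel Kcna2 fell by 0.57 and was not called without donor 2 (adjusted p = 0.135) or without donor 3 (0.16) and changed by −0.32 as the mean of its probe sets. In the circadian list, 3 of 18 were higher and 3 lower (16.7% each). Dbp, an output factor of the clock, read 6.27, 6.30 and 6.45 with PDGF and 7.84, 7.84 and 7.67 at T3 8 h (change 1.44, SE 0.14, adjusted p = 1.01e-06), and Bhlhe40, a repressor in it, read 5.33, 5.82 and 5.81 with PDGF and 3.97, 4.53 and 4.53 at T3 8 h (change −1.31, SE 0.24, adjusted p = 0.000884). Bmal1, a partner in the core activator, rose by 0.49 and was not called without donor 2 (adjusted p = 0.0779), while the other, Clock, fell by 0.45 and was not called without the donor block (adjusted p = 0.0715), without donor 1 (0.102) or without donor 2 (0.125) and changed by −0.21 as the mean of its probe sets. Nr1d2 and Cry1, repressors of the same loop, were at 0.43 and −0.39. Nr1d2 was not called without donor 1 or 2 or in 2 other fits (adjusted p from 0.134 to 0.485). Cry1 was not called without donor 1, 2 or 3 or in 2 other fits (adjusted p from 0.0618 to 0.176). Of 14 glucocorticoid targets, 3 were higher (21.4%) and 1 lower: Fkbp5, a chaperone partner of the receptor, read 8.61, 9.15 and 9.11 with PDGF and 6.99, 8.10 and 8.37 at T3 8 h (change −1.14, SE 0.23, adjusted p = 0.00196), while Cebpd, a C/EBP factor, rose by 0.72 and was not called without donor 3 (adjusted p = 0.0518). The other rises were Errfi1, given above, and the sulphotransferase Sult1a1, at 0.42. Sult1a1 was not called without donor 2 or 3 or in 2 other fits (adjusted p from 0.0611 to 0.265). Of 23 interferon-stimulated genes, 2 were higher and none lower by limma, with 2 at an unadjusted p under 0.05: Stat2, a signal transducer, rose by 0.69 (adjusted p = 0.000258), and Mx2, an antiviral GTPase, by 1.13. The most variable probe set of Mx2 changed by −0.32, and Mx2 was not called in a fit of the 6 arrays alone (adjusted p = 0.067), as the mean of its probe sets (0.762) or by its most variable probe set (0.922) and changed by 0.71 without donor 1.

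In the marker lists of other cells few genes were called. None of 17 microglia and macrophage markers and none of 15 vascular and fibroblast markers was called by limma, with 0 and 1 at an unadjusted p under 0.05. Of 15 astrocyte markers, 2 were higher (13.3%) and 2 lower (13.3%), against 10.1% and 8.63% of all genes. These counts are too small to set the list apart from all genes. Atp1b2 and Aldoc were higher and Slc1a3 and Slc4a4 lower, with changes of 0.76, 0.46, −0.40 and −0.43. Atp1b2 was not called without donor 3 (adjusted p = 0.0563). Slc1a3 was not called without donor 2 or 3 or in 3 other fits (adjusted p from 0.058 to 0.46). Slc4a4 was not called without donor 2 or 3 or in 3 other fits (adjusted p from 0.0674 to 0.279). Gfap, the astrocyte filament, read 8.09, 9.70 and 9.66 with PDGF and 8.62, 10.05 and 10.09 at T3 8 h, and was not called. Of 17 neuron markers, 1 was higher, the tubulin Tubb3, at 0.91. Tubb3 was not called without donor 2 (adjusted p = 0.125) and changed by 0.47 as the mean of its probe sets. Some markers that were not called had dimmer probe sets that changed. Those of Glul changed by 0.635 and 0.777 and that of Aqp4 by 0.549 (limma adjusted p over all probe sets = 0.00222, 0.0114 and 0.0259). Among neuron markers, that of Dcx changed by 0.633 and that of Rbfox3 by −0.542 (limma adjusted p over all probe sets = 0.0017 and 0.0119). In bulk cultures, fewer cells of a type and less RNA per cell cannot be told apart.

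Among the remaining large changes, several belong to none of the lists. Pou3f1, a POU factor known from Schwann cells, read 9.74, 9.70 and 9.65 with PDGF and 6.58, 8.15 and 8.25 at T3 8 h (change −2.03, SE 0.30, adjusted p = 0.000157), and Tnfrsf12a, the receptor of TWEAK, fell by 2.04. Shroom2, which binds actin and myosin, read 8.05, 8.40 and 8.25 with PDGF and 10.88, 10.28 and 10.19 at T3 8 h (change 2.21, SE 0.17, adjusted p = 4.49e-08), and Hs3st1, which sulphates heparan sulphate, rose by 2.23. Enpp2, or autotaxin, an enzyme that makes lysophosphatidic acid and that oligodendrocytes secrete, read 8.999, 8.55 and 8.80 with PDGF and 11.47, 10.13 and 10.10 at T3 8 h (change 1.79, SE 0.21, adjusted p = 1.49e-05). Genes best known elsewhere rose too: Rpe65, the retinoid isomerase of the eye, read 4.87, 4.62 and 4.60 with PDGF and 7.76, 6.51 and 6.38 at T3 8 h and Pnlip, the lipase of the pancreas, 8.32, 7.67 and 7.80 with PDGF and 11.12, 9.10 and 9.13 at T3 8 h (adjusted p = 0.000109 and 0.000871). Each was read from 1 probe set. The kinase Prkcq and the ETS factor Elf1 rose by 1.802 and 1.85.

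Set beside the later T3 arrays, the changes at 8 h took different courses, given here as levels with no test. Egr2 was still low, at 4.96 ± 0.68 at 24 h (mean ± SD, n = 3 as for all levels here) and 5.09 ± 0.59 at 96 h, and Spry4 was at 7.39 ± 0.36 at 96 h. Pou3f1 and Fos were back near or above their PDGF levels, at 9.67 ± 0.21 and 10.27 ± 0.12 at 96 h against 9.70 ± 0.05 and 9.38 ± 0.19 with PDGF. Mcm6 was lower still, at 8.56 ± 0.44 at 24 h and 6.88 ± 0.78 at 96 h. Ugt8 was higher still, at 10.57 ± 0.32 and 11.80 ± 0.15, while Klf9 was near its 8 h level of 9.71 ± 0.42 at 24 h, with 10.05 ± 0.05. A further set, chosen after its values were seen, had passed its highest level by 96 h. Ccng2, at 9.86 ± 0.40 at 8 h, was at 8.33 ± 0.57 at 24 h against 8.80 ± 0.17 with PDGF, and Scn1a, at 5.57 ± 0.18 at 8 h, was at 4.78 ± 0.38 against 4.81 ± 0.04.

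**Figure D5:**
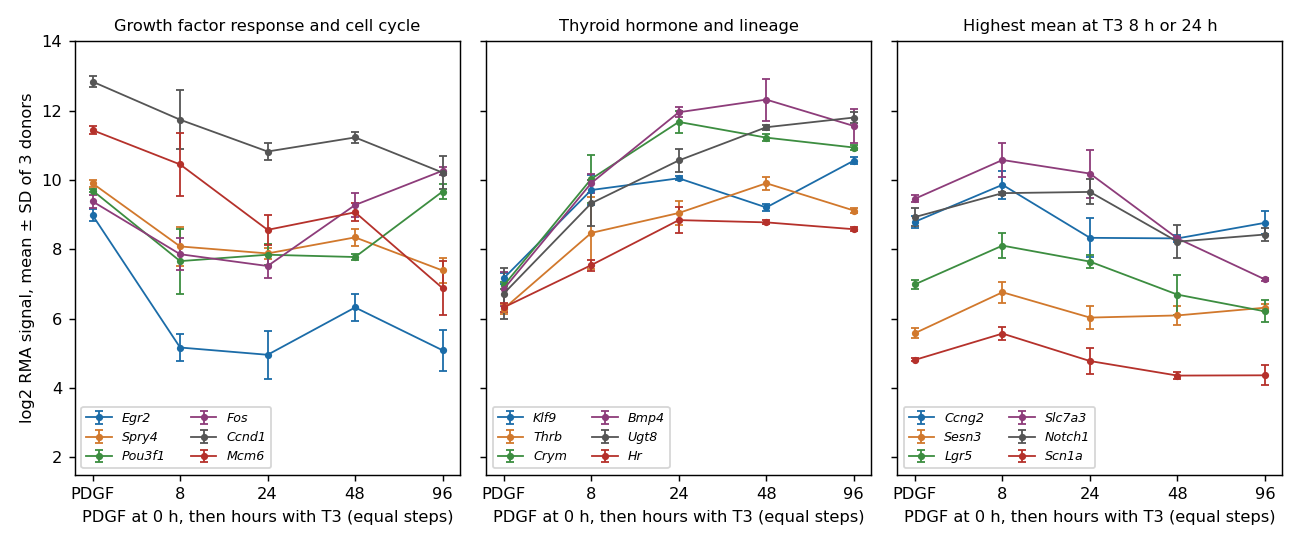
Mean log2 RMA signal with SD of 3 donors for 18 genes with PDGF at 0 h and after 8, 24, 48 and 96 h of T3; the horizontal axis has equal steps and is not to scale in time. The left panel shows growth factor and cell cycle genes that fall by 8 h, with Pou3f1 and Fos back near or above their PDGF signal at 96 h; the middle panel genes that rise and stay high; the right panel genes with the highest mean at 8 h or 24 h, as for Ccng2 and Scn1a.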

How the data were processed

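Cultures of rat OPCs from 3 donors were measured on Affymetrix rat genome arrays. The authors deposited log2 values for 31099 probe sets, made by RMA per the submitters' processing notes, which name no version; array medians ran from 5.95 to 6.03. Of these, 20832 had 1 gene symbol in the platform annotation, 436 had several and 9831 none, and each of 14218 genes was read from its brightest probe set over the 27 arrays. A linear model with group and donor was fitted to all 27 arrays in limma 3.58.1 (R 4.3.3), so the spread is shared by 9 groups, and T3 8 h was set against PDGF with moderated statistics and Benjamini-Hochberg adjustment over all genes at 0.05. Donors entered as a block because the labels give them and the comparison pairs them. Same-donor deviations of the T3 8 h and PDGF arrays correlated at 0.36, 0.13 and 0.42 in donors 1 to 3. Between different donors they ran from −0.40 to 0.18, so the value of donor 2 lay within that range. Precision is limited by the number of arrays, 3 per group. On simulated data, 73.1% of 67 genes changed 1.5-fold, 91.0% of 67 changed 2-fold and all 66 changed 4-fold were called among 14218. Only these genes were changed, by the same amount in each donor and with normal noise. In the data 18.7% of genes were called and donor 1 had larger changes, so these shares may not hold there. Genes were named by a rule: the 20 largest rises and the 20 largest falls that went the same way in every donor, the 6 called genes of a list that changed most, called genes that went against most of their list, and any gene of 5 lists; other names are said to be chosen after their values were seen or for their sites. The gene lists, their members and the alternatives were chosen with earlier results of these data known. Promoter sequences are RefSeq's, assembly GRCr8, matched by symbol for 11734 genes; no probe set coordinates were used. Alternatives changed the donor block, the arrays fitted, the moderation, the scaling, the filter, the probe set rule, the donors and the threshold.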

Additional observations from a re-analysis of the deposited data

How the results depend on the processing

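With the 1433 higher and 1227 lower genes as the base, a fit of only the 6 arrays called 485 higher and 501 lower, and an adjusted p under 0.01 left 732 and 632. Without the replicate block 1039 were higher and 763 lower. Leaving out a donor gave 417 to 960 higher and 389 to 896 lower genes, and 50 to 171 genes at least 2-fold higher and 64 to 119 at least 2-fold lower. The share of calls that were higher was 53.9%, 44% with arrays centred on their medians and 51.2% after another quantile step, and centring moved the median change by 0.04. Of 170 named genes that were called, 62 stayed called in the same direction in every alternative that held them, 56 of them in all 12, while 21 of the 170, with a mean under 6, were in 11; 86 were not called without donor 2, 63 in the 6-array fit, 59 without donor 3 and 23 without donor 1. Among them Mx2 alone turned, to −0.32 by its most variable probe set. Ano3, named outside the rule, changed by 0.54 without donor 1 and −0.47 without donor 3. The causes were not tested. The number of arrays, with 3 donors, limits every value, and most calls are under 2-fold.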

Other observations

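Of the Id genes, targets of BMP signalling that hold back differentiation, Id1 and Id3 went in different directions in the donors, and none of the 4 was called. Id3, which stood among the astrocyte markers, read 9.51, 9.89 and 10.12 with PDGF and 7.98, 11.67 and 11.60 at T3 8 h, a fall in donor 1 and a rise in donors 2 and 3, and was not called (limma adjusted p = 0.651). Id1 read 8.88, 9.67 and 9.68 with PDGF and 7.09, 10.13 and 10.22 at T3 8 h and Id2 9.52, 10.01 and 10.12 with PDGF and 7.59, 9.84 and 9.86 at T3 8 h, so that the T3 8 h array of donor 1 was the lowest for each of the 3, while Id4 read 7.52, 7.99 and 8.30 with PDGF and 7.67, 8.35 and 8.55 at T3 8 h. Of all genes, 4 changed by at least 0.5 in every donor with donor 1 opposite to the other two (Id3, Ano3, Idi1 and Cxcl12); 2 did so with donor 2 opposite and 1 with donor 3. Cxcl12, a chemokine, changed by 1.27, −0.95 and −0.70 in donors 1 to 3. These genes were chosen after their values were seen, and the cause of the donor differences was not tested.

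The next genes belong to none of the lists. Adamts5, a protease that cuts proteoglycans, read 4.89, 4.40 and 4.67 with PDGF and 7.03, 5.72 and 5.48 at T3 8 h (change 1.42, SE 0.26, adjusted p = 0.000833) and was at 4.60 ± 0.17 (SD, n = 3) at 24 h, and Olfml2a, a secreted olfactomedin-like protein, read 4.57, 4.54 and 4.50 with PDGF and 6.69, 5.73 and 5.36 at T3 8 h (change 1.39, SE 0.24, adjusted p = 0.000515) and was at 5.73 ± 0.46 at 24 h. Mycl, a relative of Myc, read 6.09, 6.51 and 6.47 with PDGF and 8.90, 7.23 and 7.22 at T3 8 h (change 1.43, SE 0.33, adjusted p = 0.00452), while Mycn had a change of −0.16 that was not called. Mycl was at 10.10 ± 0.36 at 24 h. It was not called in a fit of the 6 arrays alone (adjusted p = 0.0974) and changed by 0.73 without donor 1. Olfml2a changed by 0.83 as the mean of its probe sets. Vgf, a secreted neuropeptide precursor induced by growth factors, fell by 1.44 and was not called without donor 2 (adjusted p = 0.0816) or without donor 3 (0.0872). These too were picked after their values were seen.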
